A study of Mus musculus with 6 samples.

Results

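The collagen genes were read in RNA sequencing of mouse mammary organoids, cultures in which epithelial cells of the gland form acinus-like structures, with and without Ezh2, the catalytic subunit of the complex that writes trimethylation of histone H3 lysine 27. Members were the protein-coding genes named Col, a number, a and a number in the deposited gene table, without Col17a1. This rule gave 42 of 21627 genes: 11 fibrillar, 6 basement membrane and 8 fibril-associated collagens, and 17 of other types. The study asked which genes differ between both genotypes early in tumour initiation. All 6 libraries came from MIC organoids: FVB/N females of 8 to 12 weeks gave the cells, and in this line doxycycline induces an oncogene, polyomavirus middle T, together with the deletion of any conditional Ezh2 alleles. The 3 WT libraries carried the genotype MIC/Wild-type (MIC/EZH2wt/wt) and the 3 KO libraries MIC/Conditional Ezh2 KO (MIC/EZH2fl/fl). Every culture grew for 6 days and then received 2 µg/ml doxycycline for 8 days, so the oncogene was induced in the controls too, and no untreated culture was compared. The labels name neither the promoter behind the transgenes nor whether replicates came from separate mice, so p-values rest on a spread between samples that may be technical only.

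Collagens are the main structural proteins of the extracellular matrix. Their chains are hydroxylated in the endoplasmic reticulum and wind into helices, which are trimmed after secretion, assembled into fibrils or sheets and cross-linked. In the mammary gland, type IV collagen networks underlie the epithelium as basement membrane, while fibrils of types I, III and V fill the stroma, where fibroblasts are the usual source. Fibril-associated collagens sit on fibril surfaces and set fibril spacing and contacts.

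The libraries held between 18292722 and 29203634 counted reads. The targeted gene, Ezh2, had 19.3, 22.6 and 14.7 CPM (counts scaled to a common library size, with TMM factors) in WT replicates 1 to 3 and 7.13, 7.28 and 5.84 in KO replicates 1 to 3. All KO values lay below all WT values, and the log2 fold change was -1.48 ± 0.20 (SE, edgeR adjusted p = 0.0755, DESeq2 adjusted p = 1.46e-07). Epithelial markers were abundant in every library: 9 luminal markers summed to 2155 to 2708 FPKM (fragments per kilobase of gene, scaled to the library total) and 9 myoepithelial markers to 183 to 228. Markers of other cell types were read as well: 8 myeloid markers summed to 109, 1245 and 332 FPKM in WT and 149, 179.9 and 119 in KO replicates 1 to 3, highest in WT replicate 2. There, 1046 FPKM came from Lyz2. All 8 had negative fold changes, with a median log2 of -1.54. DESeq2 called Tyrobp (adjusted p = 0.0409) and Itgam (adjusted p = 0.00567) lower in KO, and edgeR called 0. The part of myeloid content in the collagen levels was not tested. The 6 endothelial markers summed to 1.23 to 2.61 FPKM. WT replicate 1 stood apart in collagen reads, with 0.765% of all counts against 1.67 and 2.37% in the other WT libraries and 1.70 to 1.92% in KO. Fold changes of the main genes and class sums are therefore given with and without it.

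Summed over the 42 genes, collagen transcripts reached 1249, 2809.9 and 3988 FPKM in WT replicates 1 to 3 and 3204, 2819.5 and 3179 in KO replicates 1 to 3. WT replicate 1 was the lowest and WT replicate 3 the highest library, with all KO libraries between them. By mean share of this sum, fibrillar collagens made up 57.8%, basement membrane collagens 22.0%, fibril-associated collagens 2.57% and the remaining types 17.6%. Ranked by mean FPKM over the 6 libraries, Col1a1 (632) and Col1a2 (541), the chains of type I collagen, led, followed by Col4a1 (328), Col3a1 (325), Col4a2 (209), Col18a1 (152) and Col6a1 (146). Col1a1 and Col1a2 overlapped in their library values, as did Col4a1 and Col3a1, and Col18a1 and Col6a1, so these neighbours were not separated beyond their spread. At the other end, 6 genes were too low to test, with Col22a1 at 1 read over the 6 libraries, Col6a4 and Col6a6 at 2 each, Col2a1 and Col6a5 at 12 each and Col10a1 at 40.

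**Figure D1:**
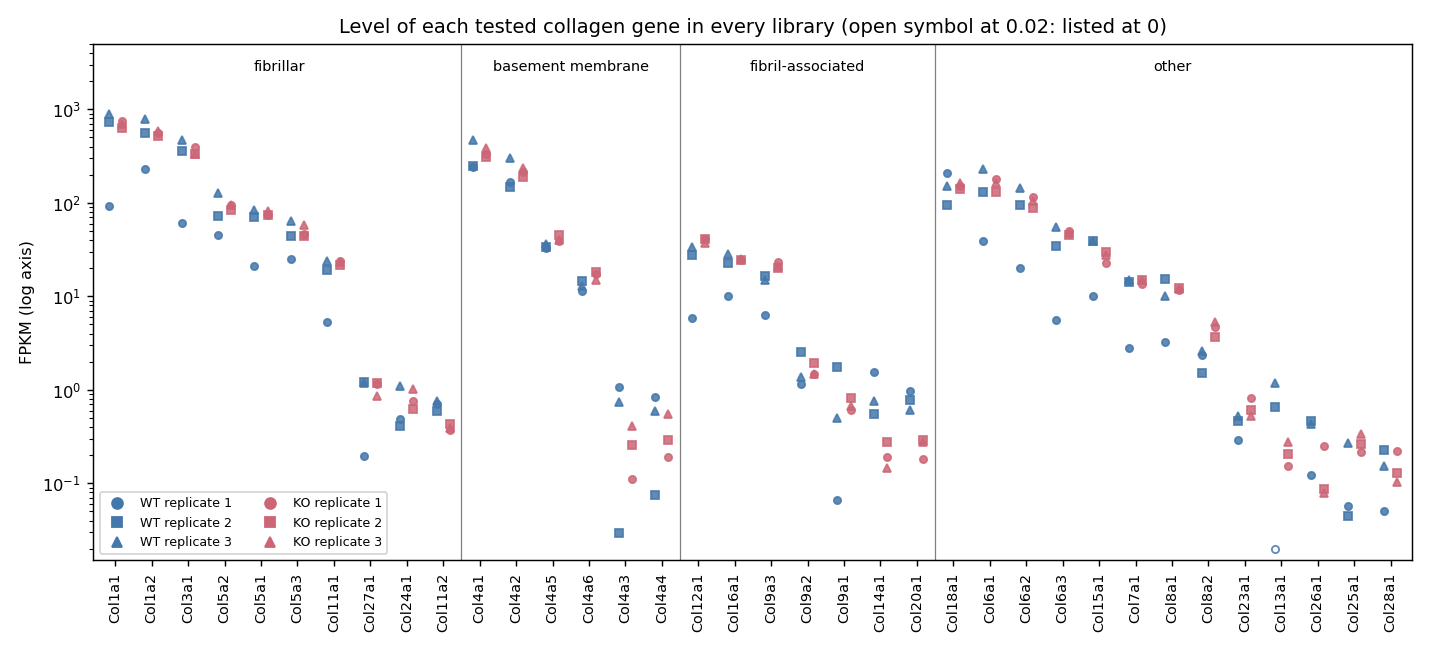
FPKM of the 36 tested collagen genes on a log axis, ordered by mean level within each class. Blue symbols are the 3 WT libraries and red symbols the 3 KO libraries, and an open symbol stands for a gene listed at 0. Levels run from Col1a1, at a mean of 632 FPKM, to Col28a1, at 0.148. Counted in CPM rather than the FPKM plotted, WT replicate 1 (blue circle) is the lowest library for 23 of the 36 genes.

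Between genotypes, 3 collagen genes separated by DESeq2: Col8a2, a network-forming chain, rose in KO, and the fibril-associated Col14a1 and Col20a1 fell. edgeR, the main test, called none of the 36 tested collagens at an adjusted p of 0.05, as it called 0 of 14196 genes (0%). The 7 collagens at an unadjusted edgeR p under 0.05 were 19.4% of those tested, beside 19.8% of all genes. DESeq2 called 3 of 36 (8.33%) beside 7.67% of all genes with an adjusted p; the 1 higher and 2 lower collagens stood beside 4.13% higher and 3.53% lower genes. The authors' deposited table listed the same 3 genes at an adjusted p under 0.05, beside 6.18% of all genes. KO libraries lay wholly above WT libraries for 5 collagens (Col4a5, Col4a6, Col8a2, Col9a3 and Col12a1), or 13.9% beside 14.2% of all genes, and wholly below for 3 (Col11a2, Col14a1 and Col20a1), or 8.33% beside 14.6%. These shares were near the background or below it. DESeq2's count moved with the libraries: leaving out WT replicate 1, 2 or 3 gave 6, 7 and 6 collagens (beside 14.8, 12.2 and 9.88% of all genes), and leaving out KO replicate 1, 2 or 3 gave 2, 3 and 2 (beside 2.05, 2.70 and 2.47%). Col14a1 and Col20a1 were called in all 6 of these fits and Col8a2 in 4. Some further calls followed from which library was dropped. For Col13a1 and Col15a1 it was WT replicate 1, the WT library farthest against the direction called. The same held for Col4a3, Col4a6, Col9a3 and Col11a2 without WT replicate 2. It also held for Col4a1, Col5a2 and Col25a1 without WT replicate 3. Such calls give no separate support for a difference.

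The log2 fold change, KO over WT, was positive for 25 collagens and negative for 11, with a median of 0.24 beside -0.05 over all 14196 genes. The sign of this median rested on WT replicate 1. Without that library, 15 of the 36 fold changes switched sign and the median was -0.070. Its size also depended on WT replicate 3, the highest library for 19 of the 36 collagens, beside 1818 of all 14196 genes. Without WT replicate 3 the median was 0.54. Whichever single library was left out, 18 fold changes kept their sign. The coefficient of variation between WT libraries had a median of 56.9% over the collagens, against 13.5% between KO libraries, and was larger in WT for 34 of 36; over all genes the medians were 19.5% and 8.29%. For 24 collagens (66.7%) all KO values fell between the lowest and the highest WT value, as they did for 33.6% of all genes.

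**Figure D2:**
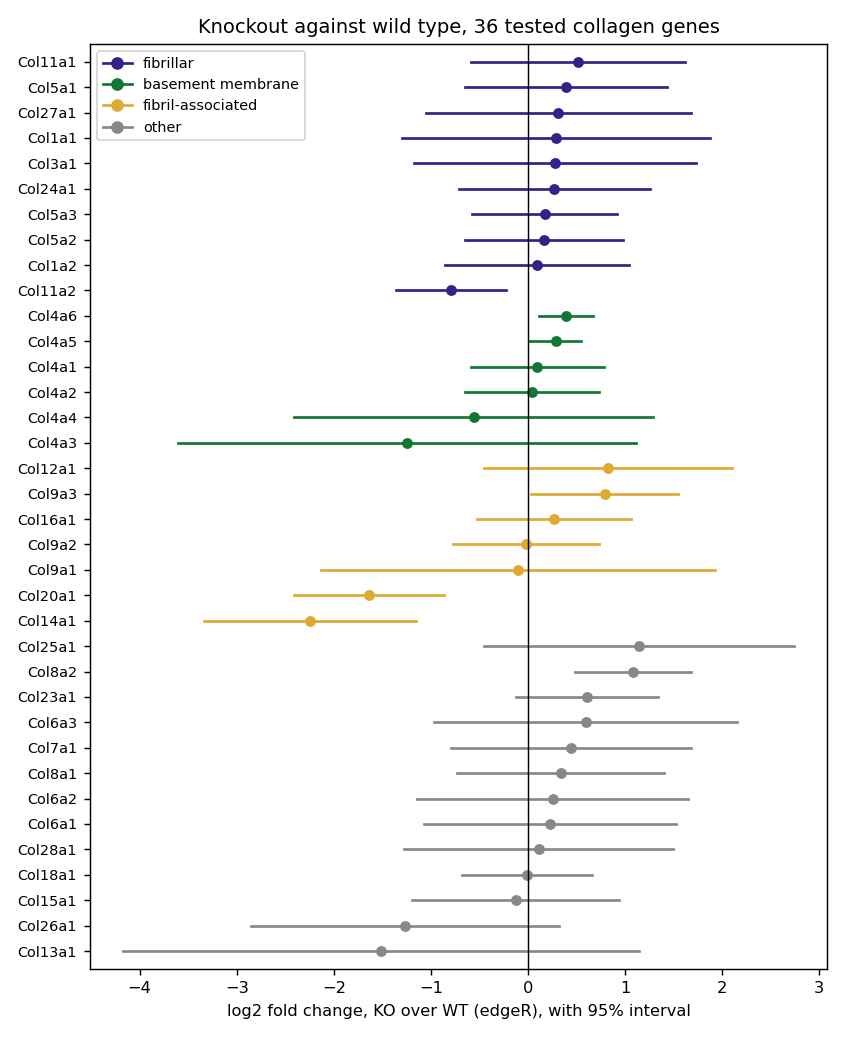
Log2 fold change, KO over WT, of the 36 tested collagen genes from edgeR, with 95% intervals, coloured by class. Intervals of Col14a1, Col20a1, Col8a2, Col11a2, Col4a6, Col4a5 and Col9a3 leave out 0 before adjustment, and the intervals of the abundant fibrillar genes are wide, as for Col1a1 at -1.30 to 1.87.

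None of the 10 tested fibrillar collagens, which form the rope-like fibrils of stroma, passed edgeR's or DESeq2's adjusted test with all 6 libraries. Groups did not overlap for 1 (Col11a2, KO below), or 10%, beside 14.6% of all genes with KO wholly below. Col1a1 stood at 562, 4219.7 and 5348 CPM in WT replicates 1 to 3 and 4473, 3708 and 4177 in KO replicates 1 to 3. WT replicate 1 was far below the other 5 libraries, which lay between 3708 and 5348. Its log2 fold change was 0.29 ± 0.67 (edgeR adjusted p = 0.844), and -0.20 without WT replicate 1. Col1a2, the partner chain of type I collagen, gave 1232, 2883 and 4308 CPM in WT and 3005, 2753 and 3187 in KO, with a log2 fold change of 0.09 ± 0.40 (edgeR adjusted p = 0.926) that became -0.26 without WT replicate 1. Col3a1, the chain of type III collagen, which co-assembles with type I in distensible tissue, had 341, 1918 and 2648 CPM in WT and 2208, 1844 and 1889 in KO. Again the groups overlapped and WT replicate 1 was lowest, with a log2 fold change of 0.28 ± 0.62 (edgeR adjusted p = 0.836), or -0.19 without that library.

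The low level of WT replicate 1 was uneven among the fibrillar genes. Relative to the KO mean on the log2(CPM + 0.5) scale, the median fibrillar gene stood at -1.55, -0.11 and 0.41 in WT replicates 1 to 3, while the median over all genes was 0.01, 0.02 and 0.02. The ratio of Col1a1 to Col1a2, in FPKM, was 0.411, 1.32 and 1.12 in WT and 1.34, 1.21 and 1.18 in KO: WT replicate 1 held less Col1a1 than Col1a2 and the other 5 libraries held more. Type V chains, which nucleate fibrils, had mean levels of 86.4 (Col5a2), 67.4 (Col5a1) and 47.1 FPKM (Col5a3), and the type XI chain Col11a1 had 19.6. By library, Col5a1 had 179, 566 and 727 CPM in WT and 626, 614 and 690 in KO, and Col5a2 303, 466 and 856 and 623, 549 and 646. Col5a3 had 156, 263 and 397 and 284, 271 and 363, and Col11a1 41.2, 143 and 187 and 184, 164 and 182. In all 4 the lowest library was WT replicate 1 and the highest WT replicate 3. Col27a1, Col24a1 and Col11a2 had means over the 6 libraries between 0.544 and 0.963 FPKM. For Col5a2, Col5a1, Col5a3, Col11a1, Col27a1 and Col24a1 the log2 fold changes lay between 0.16 and 0.51. Without WT replicate 1 they were -0.11, 0.0074, -0.09, 0.11, -0.15 and 0.11, in that order. Col11a2, whose product joins minor fibrils of cartilage and other tissues, had 4.37, 3.43 and 4.76 CPM in WT and 2.23, 2.58 and 2.42 in KO. All its KO values lay below all WT values, at a log2 fold change of -0.79 ± 0.24 (edgeR adjusted p = 0.153), or -0.74 without WT replicate 1. DESeq2 called it lower in KO without WT replicate 2, its lowest WT library (adjusted p = 0.0268). Without WT replicate 3 DESeq2 called Col5a2 higher in KO (adjusted p = 0.0352).

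Summed fibrillar FPKM was 479.6, 1864 and 2435 in WT replicates 1 to 3 and 1963, 1707 and 1875 in KO replicates 1 to 3, or 1848 ± 130 in KO and 1593 ± 1006 in WT (SD, n = 3 each). The log2 ratio of these means, KO over WT, was 0.21 with all libraries and -0.22 without WT replicate 1, so its sign rested on that library. The median fold change of the 10 tested genes went from 0.27 to -0.13 without WT replicate 1. It went to 0.72 without WT replicate 3, the highest library in CPM for all 10. The fibroblast marker list, of which 11 of 12 genes had a row in the table, summed to 54.7, 120.4 and 168 FPKM in WT and 99.2, 91.0 and 97.4 in KO, again lowest in WT replicate 1 and highest in WT replicate 3. None of these markers was at 0 in all libraries, Clec3b was at 0 in WT replicate 1, and Pi16 was the 1 marker of 10 tested that DESeq2 called, lower in KO (adjusted p = 0.0195). Within WT, Pdgfra (15.9, 8.1 and 22.4 FPKM in replicates 1 to 3), Pi16 and Ebf2 were lowest in replicate 2, and Clec3b was highest there. The other fibroblast markers rose from WT replicate 1 to 3, so only part of this list followed the fibrillar sum. The 5 pericyte markers summed to 13.5, 17.1 and 28.2 FPKM in WT and 24.4, 23.7 and 28.1 in KO. Most of this sum was Cspg4, at 11.6, 15.7 and 26.7 FPKM in WT replicates 1 to 3, the order of the fibrillar sum. Rgs5 (0.823, 0.501 and 0.747) and Des (0.986, 0.661 and 0.433) were instead highest in WT replicate 1. Kcnj8 and Abcc9, at most 0.25 FPKM in WT, were lowest there, so the list did not follow the fibrillar sum as a whole. The 4 tested had positive fold changes, 0.20 to 0.56, and none was called. The part of fibroblast or pericyte content in the collagen levels was not tested, and in bulk RNA fewer cells of a type and less RNA per cell cannot be told apart.

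**Figure D3:**
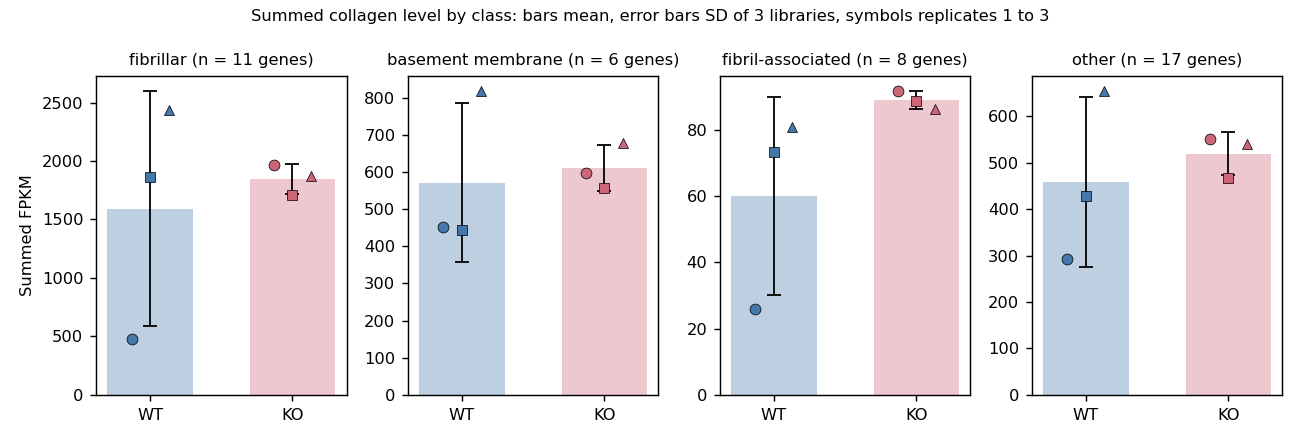
Summed FPKM of the genes of each collagen class in WT (blue) and KO (red) organoids. Bars are means and error bars SDs of 3 libraries, and the circle, square and triangle are replicates 1, 2 and 3. The WT libraries spread from 479.6 to 2435 FPKM in the fibrillar class and the KO libraries lie between them. In the fibril-associated class every KO library lies above every WT library.

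**Figure D4:**
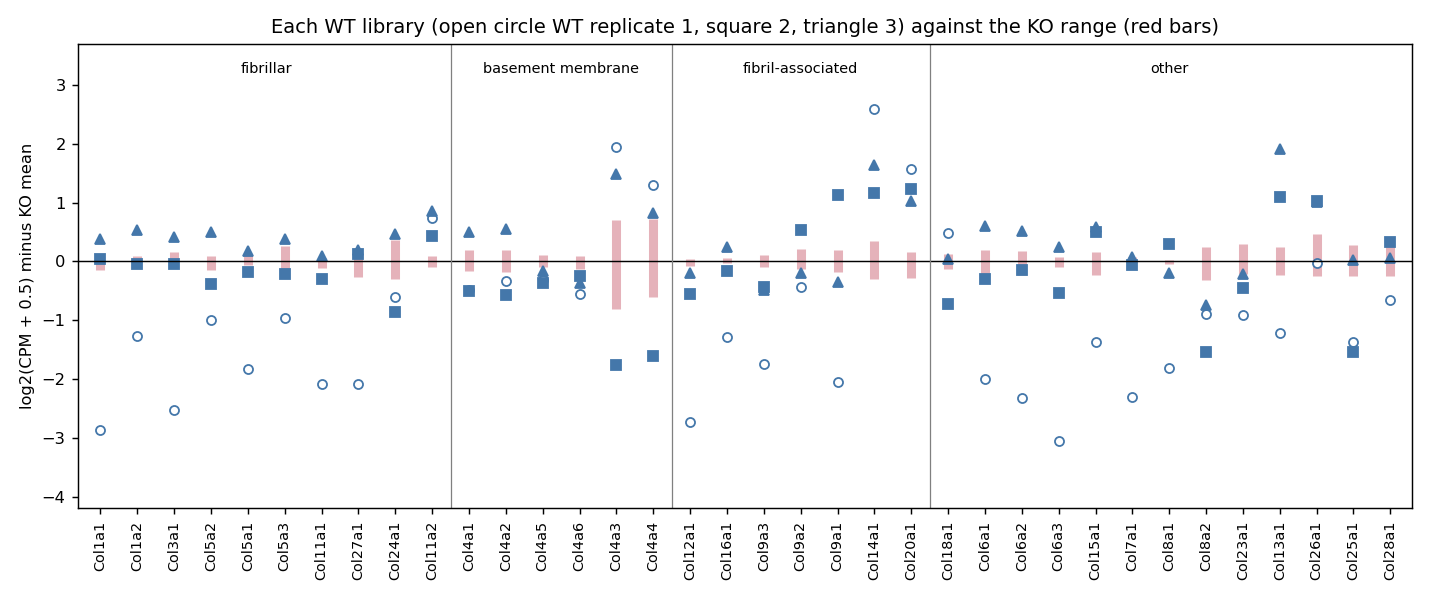
Level of each tested collagen gene in the WT libraries on the log2(CPM + 0.5) scale, minus the mean of the KO libraries. Open circles are WT replicate 1, squares WT replicate 2 and triangles WT replicate 3, and red bars span the KO libraries. The open circles reach below -2 for Col1a1 and Col3a1, while those of the type IV genes, Col14a1 and Col20a1 lie above -1.

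Fibril-associated collagens included both genes that fell in KO by DESeq2, Col14a1 and Col20a1. They were 2 of the 7 tested in the class, beside 3.53% of all genes, and edgeR called neither with all 6 libraries. So few genes give no result about the class. The most abundant member, Col12a1, had its KO libraries above its WT libraries without passing either test. Col14a1, at chr15:55307750-55520803 of mm10 on the plus strand, encodes a chain that coats type I fibrils and limits their lateral growth. It had 10.2, 3.47 and 5.03 CPM in WT replicates 1 to 3 and 1.22, 1.77 and 0.955 in KO replicates 1 to 3, from 398 and 113 reads in all. Every KO library lay below every WT library, and WT replicate 1, the lowest for Col1a1, was here the highest. The log2 fold change was -2.24 ± 0.46 (edgeR adjusted p = 0.0927, DESeq2 adjusted p = 3.44e-04), and -1.67 without WT replicate 1 (edgeR adjusted p = 0.0665). Without WT replicate 2 edgeR called it, at -2.53 (adjusted p = 0.0455), and DESeq2 called it whichever single library was left out. The authors' deposited table gave -1.30 (adjusted p = 2.32e-04), nearer 0 than the log2 ratio of the group means in the same table.

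Col20a1, a fibril-associated chain at chr2:180986535-181017540 on the plus strand, had 4.11, 3.14 and 2.63 CPM in WT replicates 1 to 3 and 0.765, 1.22 and 1.18 in KO replicates 1 to 3. Every WT library lay above every KO library. Its log2 fold change was -1.64 ± 0.33 (edgeR adjusted p = 0.0878, DESeq2 adjusted p = 0.00161), -1.43 without WT replicate 1, and DESeq2 called it in each of the 6 fits that left out 1 library. Depth was thin, at 207 WT and 90 KO reads, and a sense-overlapping transcript covers 1.54% of its exon bases. Its RefSeq promoter window (250 bases before to 50 after the start, GRCm38.p6 chr2:180986285-180986584, plus strand) is shown because it held no match to the motifs searched on both strands: CCAAT for the CCAAT box, GGGCGG for the GC box and TATAAA for the TATA box. Matches in the sequences of Col4a1, Col4a2, Col4a5, Col4a6 and Col8a2, printed with those genes, are in capitals.
Col20a1: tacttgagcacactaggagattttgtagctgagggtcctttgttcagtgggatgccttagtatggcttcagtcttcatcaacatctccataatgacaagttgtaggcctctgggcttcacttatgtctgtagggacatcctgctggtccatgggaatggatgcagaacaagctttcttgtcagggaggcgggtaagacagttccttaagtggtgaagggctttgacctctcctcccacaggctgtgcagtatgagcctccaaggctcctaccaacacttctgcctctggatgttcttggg

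Col12a1, which like Col14a1 binds fibril surfaces, had 68.4, 311 and 399.6 CPM in WT and 474, 466 and 438 in KO. The KO libraries had a coefficient of variation of 4.21% and lay above all WT libraries, of which WT replicate 1 was lowest by far. The log2 fold change was 0.82 ± 0.54 (edgeR adjusted p = 0.434) and 0.39 without WT replicate 1. Col9a3, a chain of type IX collagen, known from cartilage, gave 19.3, 48.7 and 46.6 CPM in WT and 70.9, 61.4 and 65.5 in KO, without overlap, at 0.79 ± 0.32 (edgeR adjusted p = 0.239, DESeq2 adjusted p = 0.111). DESeq2 called it higher in KO without WT replicate 1, its lowest WT library (adjusted p = 0.00491), or WT replicate 2, its highest (adjusted p = 0.0188). Its exons overlap those of Tcfl5 on the other strand over 6.07% of their bases, and the protocol names no strand step. Its partner chains Col9a2 and Col9a1 were at -0.03 ± 0.32 and -0.11 ± 0.86 (-0.22 and -0.65 without WT replicate 1) and averaged 1.66 and 0.731 FPKM, beside 17.1 for Col9a3. Col16a1, another fibril-associated chain, had 52.9, 115 and 153 CPM in WT and 127, 126 and 134 in KO, groups that overlapped, at 0.27 ± 0.34 (edgeR adjusted p = 0.689), or -0.04 without WT replicate 1. Over the class, FPKM summed to 25.9, 73.2 and 80.8 in WT and 91.7, 88.8 and 86.4 in KO, or 89.0 ± 2.66 in KO and 60.0 ± 29.8 in WT (SD, n = 3 each). All KO sums exceeded all WT sums, with Col12a1 the largest contributor, and the log2 ratio of means was 0.57, or 0.21 without WT replicate 1. The median fold change of the 7 tested genes was -0.03, and ranged from -0.22 to 0.36 with 1 library left out.

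Basement membrane collagens, the type IV chains, are encoded as head-to-head gene pairs. Col4a1 (chr8:11198423-11312826, minus strand) and Col4a2 (chr8:11312805-11449287, plus strand) overlap by 22 bases at their starts. Col4a6 (chrX:141165403-141474076, minus strand) and Col4a5 (chrX:141475385-141689234, plus strand) lie 1308 bases apart, and Col4a4 (chr1:82448423-82586849, minus strand) and Col4a3 (chr1:82586921-82722059, plus strand) 71 bases apart, all in mm10. The RefSeq promoter windows (GRCm38.p6) of the first pairs are printed because their members' levels are compared below; Col4a1 spans chr8:11312777-11313076 on the minus strand, Col4a2 chr8:11312555-11312854 on the plus strand, Col4a5 chrX:141475169-141475468 on the plus strand and Col4a6 chrX:141474027-141474326 on the minus strand. Capitals mark the motifs CCAAT and GGGCGG or their reverse complements, ATTGG and CCGCCC. The Col4a1 and Col4a2 windows share 78 bases, which is why the GC box of Col4a1 downstream of its start is the reverse complement of one of Col4a2.
Col4a1: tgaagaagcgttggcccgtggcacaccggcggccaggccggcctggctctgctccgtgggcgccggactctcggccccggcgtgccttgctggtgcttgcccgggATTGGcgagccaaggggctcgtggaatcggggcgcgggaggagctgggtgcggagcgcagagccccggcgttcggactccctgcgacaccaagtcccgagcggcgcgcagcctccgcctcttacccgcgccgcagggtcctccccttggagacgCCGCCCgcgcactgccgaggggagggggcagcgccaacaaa
Col4a2: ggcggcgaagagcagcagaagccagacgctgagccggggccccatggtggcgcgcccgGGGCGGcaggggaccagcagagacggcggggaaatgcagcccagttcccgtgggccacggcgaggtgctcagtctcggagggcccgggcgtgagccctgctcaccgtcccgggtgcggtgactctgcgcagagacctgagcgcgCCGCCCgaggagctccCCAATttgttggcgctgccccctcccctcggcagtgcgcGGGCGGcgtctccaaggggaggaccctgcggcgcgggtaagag
Col4a5: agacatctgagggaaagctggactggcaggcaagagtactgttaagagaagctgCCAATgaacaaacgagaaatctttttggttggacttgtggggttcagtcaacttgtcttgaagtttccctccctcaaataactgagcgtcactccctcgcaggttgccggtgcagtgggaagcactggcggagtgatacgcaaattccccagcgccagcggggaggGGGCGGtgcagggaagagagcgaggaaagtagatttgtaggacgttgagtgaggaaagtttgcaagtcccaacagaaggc
Col4a6: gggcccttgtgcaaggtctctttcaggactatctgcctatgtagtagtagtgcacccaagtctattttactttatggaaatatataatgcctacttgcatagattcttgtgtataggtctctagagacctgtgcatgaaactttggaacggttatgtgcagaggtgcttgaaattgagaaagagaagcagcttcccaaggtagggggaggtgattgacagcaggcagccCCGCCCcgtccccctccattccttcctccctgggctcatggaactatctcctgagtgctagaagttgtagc

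No type IV gene passed edgeR's or DESeq2's adjusted test with all 6 libraries, and levels differed more between the pairs than between genotypes. Col4a1 had 1599.5, 1577 and 3154 CPM in WT replicates 1 to 3 and 2169.8, 2009 and 2579.5 in KO replicates 1 to 3, with WT replicate 3 highest and the groups overlapping, at a log2 fold change of 0.09 ± 0.29 (edgeR adjusted p = 0.887). Col4a2 had 1087, 922 and 1991 CPM in WT and 1357, 1199.9 and 1562 in KO, at 0.04 ± 0.29 (edgeR adjusted p = 0.953). The partners kept a steady ratio: Col4a1 over Col4a2 in FPKM was 1.44, 1.67 and 1.54 in WT and 1.56, 1.63 and 1.61 in KO. Their sign was not fixed, as both fold changes turned negative without WT replicate 1 (-0.06 and -0.07), without WT replicate 2 and without KO replicate 3, and DESeq2 called Col4a1 higher in KO without WT replicate 3 (adjusted p = 0.0222).

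**Figure D5:**
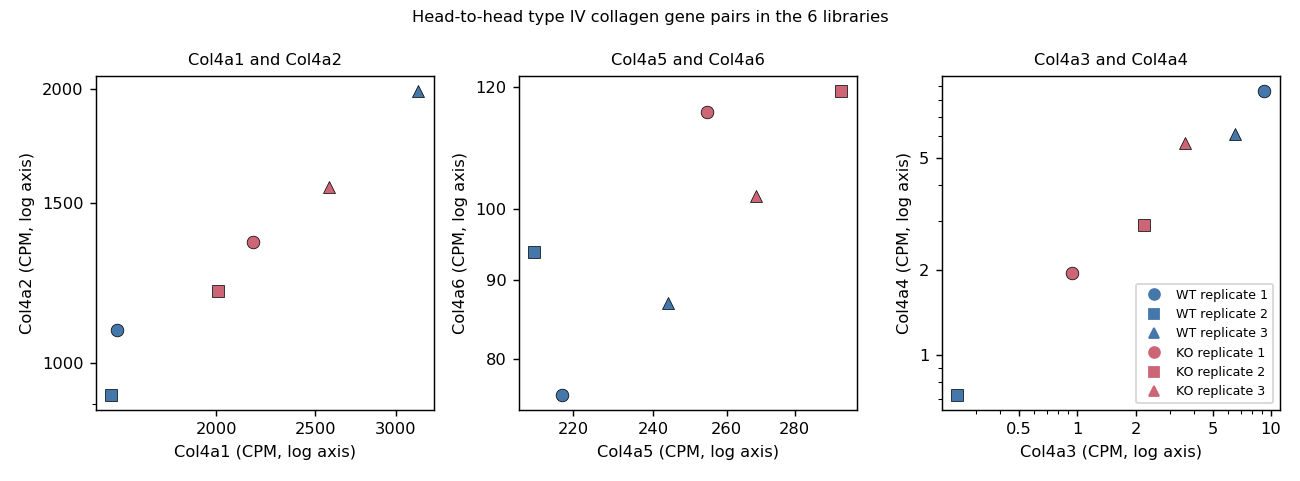
CPM of the partners of each head-to-head type IV pair plotted against each other on log axes, 1 symbol per library (blue WT, red KO, shapes replicates 1 to 3). Each panel has its own scale. The KO libraries lie to the upper right of the WT libraries for Col4a5 and Col4a6 and among the WT libraries for the other pairs.

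Col4a5 and Col4a6, whose chains build a network known from smooth muscle basement membranes among others, had every KO library above every WT library. Col4a5 had 217, 211 and 244 CPM in WT and 255, 295 and 268 in KO, at 0.28 ± 0.11 (edgeR adjusted p = 0.232), or 0.28 without WT replicate 1. Col4a6 had 75.9, 93.8 and 87.0 CPM in WT and 116, 119 and 102 in KO, at 0.39 ± 0.12 (edgeR adjusted p = 0.152, DESeq2 adjusted p = 0.0594), or 0.33 without WT replicate 1. Without WT replicate 2, the highest WT library for Col4a6, DESeq2 called that gene higher in KO (adjusted p = 0.00738). Here WT replicate 1 did not stand far below the other WT libraries. Col4a5 over Col4a6 in FPKM was 2.91, 2.29 and 2.85 in WT and 2.24, 2.51 and 2.68 in KO. The 9 myoepithelial markers summed to 228, 204 and 222 FPKM in WT and 210.5, 183 and 192 in KO. They went both ways, with 3 positive and 6 negative fold changes: DESeq2 called Oxtr higher (1.70 ± 0.35, adjusted p = 1.13e-04) and Cnn1 lower (-1.19 ± 0.23, adjusted p = 0.00133), and edgeR called neither. The part of myoepithelial content in the levels of Col4a5 and Col4a6 was not tested.

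Col4a3 and Col4a4, best known from the glomerular basement membrane, were scarce, at means of 0.438 and 0.423 FPKM, and uneven among WT libraries. Col4a3 had 9.25, 0.241 and 6.55 CPM in WT and 0.939, 2.21 and 3.60 in KO, and Col4a4 8.64, 0.724 and 6.10 and 1.95, 2.89 and 5.66. Both were lowest in WT replicate 2 and highest in WT replicate 1, with overlapping groups, and without WT replicate 2 DESeq2 called Col4a3 lower in KO (adjusted p = 0.00949). The class summed to 451, 444 and 818 FPKM in WT and 598, 557 and 679 in KO, or 611 ± 61.8 in KO and 571 ± 214 in WT (SD, n = 3 each). The log2 ratio of these means was 0.10, and -0.046 without WT replicate 1. The median fold change of the 6 genes was 0.07, and ranged from -0.12 to 0.38 with 1 library left out. Unlike the fibrillar sum, the class sum was about as low in WT replicate 2 as in WT replicate 1: Col4a1 over Col1a1 in FPKM was 2.55, 0.335 and 0.529 in WT and 0.435, 0.486 and 0.554 in KO, so WT replicate 1 had more Col4a1 than Col1a1 and the other 5 libraries less.

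Among the remaining types, Col8a2 rose in KO by DESeq2 and no other gene passed a test with all 6 libraries. It was 1 of the 13 tested, or 7.69%, beside 4.13% of all genes. Col8a2, at chr4:126286793-126314330 on the plus strand, encodes a short network-forming chain known from Descemet's membrane of the cornea and from vessel walls. It had 10.3, 6.37 and 11.4 CPM in WT replicates 1 to 3 and 20.3, 15.6 and 23.2 in KO replicates 1 to 3, so the lowest KO library exceeded the highest WT library. The log2 fold change was 1.08 ± 0.25 (edgeR adjusted p = 0.109, DESeq2 adjusted p = 0.00412), and 1.17 without WT replicate 1. DESeq2 no longer called it without KO replicate 1 (adjusted p = 0.098) or KO replicate 3 (adjusted p = 0.119). The authors' deposited table gave 0.88 (adjusted p = 0.00386). Col8a1, the partner chain, had 16.9, 75.4 and 52.8 CPM in WT and 59.3, 61.8 and 61.8 in KO. It stood at a mean of 10.7 FPKM beside 3.34 for Col8a2, with a log2 fold change of 0.33 ± 0.45 that was -0.06 without WT replicate 1. The Col8a2 window (RefSeq, GRCm38.p6 chr4:126286544-126286843, plus strand) is printed beside that of Col20a1 as that of the called gene with the opposite direction; it held 4 GGGCGG matches, all upstream of the start and 2 of them overlapping, in capitals.
Col8a2: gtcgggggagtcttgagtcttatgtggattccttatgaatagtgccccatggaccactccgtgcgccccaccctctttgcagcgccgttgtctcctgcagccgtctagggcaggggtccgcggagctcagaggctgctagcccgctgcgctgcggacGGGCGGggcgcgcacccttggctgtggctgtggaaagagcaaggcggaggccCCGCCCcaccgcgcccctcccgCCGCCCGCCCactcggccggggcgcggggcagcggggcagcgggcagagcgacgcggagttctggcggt

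Type VI collagen, which forms beaded filaments beside cells, came from Col6a1, Col6a2 and Col6a3. Col6a1 had 160.4, 521 and 976 CPM in WT and 729, 532 and 677 in KO, at 0.23 ± 0.55 (edgeR adjusted p = 0.852). Col6a2 had 100.1, 454 and 727 and 571, 429.6 and 526, at 0.25 ± 0.59 (edgeR adjusted p = 0.845), and Col6a3 had 57.8, 333 and 571 and 508, 452 and 489, at 0.59 ± 0.66 (edgeR adjusted p = 0.652). All 3 followed the fibrillar pattern, with WT replicate 1 lowest, WT replicate 3 highest and KO between, and without WT replicate 1 their fold changes were -0.20, -0.20 and 0.11. Col6a1 over Col6a2 in FPKM stayed between 1.37 and 1.92.

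Col18a1 and Col15a1, basement membrane proteoglycans whose ends release the antiangiogenic fragments endostatin and restin, stood at opposite ends in WT replicate 1. Col18a1 had 1344, 581 and 989 CPM in WT and 954, 884 and 1052 in KO, so WT replicate 1 was the highest library, at a log2 fold change of -0.01 ± 0.28 (edgeR adjusted p = 0.988) and 0.31 without WT replicate 1. Col15a1 had 52.6, 194 and 206 and 117, 153 and 144, with WT replicate 1 lowest, at -0.13 ± 0.45 (edgeR adjusted p = 0.904) and -0.52 without it, where DESeq2 called it (adjusted p = 0.0157). Col7a1, the anchoring fibril chain that fastens epithelial basement membrane to stroma, had 26.5, 128 and 140.2 CPM in WT and 124, 136 and 139.6 in KO. Apart from WT replicate 1, its libraries lay within one narrow range, and its fold change of 0.44 ± 0.52 (edgeR adjusted p = 0.671) was 0.01 without that library.

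The transmembrane collagens Col13a1, Col23a1 and Col25a1, with Col26a1 and Col28a1, stayed at or below 0.539 FPKM on average. Their log2 fold changes ran from -1.51 for Col13a1 to 1.14 for Col25a1, with SEs of 0.31 to 1.13, and none passed a test with all 6 libraries. Col13a1 had no read in WT replicate 1 and 1.98 and 3.86 CPM in WT replicates 2 and 3, against 0.487, 0.646 and 0.881 in KO. DESeq2 called it lower in KO without WT replicate 1 (adjusted p = 0.00247), and called Col25a1 higher without WT replicate 3 (adjusted p = 0.00229). In both cases the library left out was the WT library farthest against that direction. The 2 fits called 14.8 and 9.88% of all genes.

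Across the members, 33 of 42 had a RefSeq promoter window (GRCm38.p6). GGGCGG on either strand was in 63.6% of these, beside 35.9% of all 27025 windows of the same length, CCAAT in 30.3% beside 37.9% and TATAAA in 12.1% beside 14.2%. Median GC content was 60.0% in collagen windows and 52.7% in all. These are matches of letters in the window and describe no binding.

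The machinery that makes, trims, cross-links and binds collagen was read from 5 lists with 52 genes in the table, of which 47 were tested. edgeR called 0 of them; 6 had an unadjusted p under 0.05, or 12.8% beside 19.8% of all genes. DESeq2 called 2 higher and 1 lower, or 6.38% beside 7.67%. The median log2 fold change was 0.06, with 24 positive and 23 negative. P4ha1, a catalytic subunit of prolyl 4-hydroxylase, which stabilises the helix, fell in KO by DESeq2: 96.4, 89.2 and 78.9 CPM in WT and 61.6, 66.1 and 66.2 in KO, without overlap, at -0.45 ± 0.11 (edgeR adjusted p = 0.113, DESeq2 adjusted p = 0.0206). P4ha2, a second such subunit, had 66.9, 67.4 and 66.0 and 53.7, 50.9 and 58.7 CPM, and Ppib, a prolyl isomerase of the endoplasmic reticulum, 60.2, 93.2 and 69.0 and 46.7, 50.7 and 55.1. Both lay lower in KO without overlap and did not pass either adjusted test (edgeR adjusted p = 0.173 and 0.164). The fourth by p, the galactosyltransferase Colgalt2, was at 1.25 ± 0.58; over the 21 tested modification and folding genes 8 fold changes were positive and 13 negative.

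Of the procollagen-processing genes, 7 were tested and none was called. The smallest p-values belonged to the amino-propeptidase Adamts14 (log2 fold change -0.93 ± 0.42), the carboxy-propeptidase Bmp1 (0.38 ± 0.28), its relative Tll1 (0.73 ± 0.48) and Adamts3 (0.63 ± 0.46). None of the 5 cross-linking oxidases was called, and Lox, the highest of them by mean FPKM, had 579, 1167 and 1855 CPM in WT and 1244, 1266 and 1429.8 in KO, in the same library order as Col1a2 for the WT group. Loxl4, Loxl2 and Loxl1 were at 0.22 ± 0.20, 0.27 ± 0.52 and -0.10 ± 0.30. Among fibril-binding proteoglycans, Ogn, which encodes osteoglycin, rose in KO by DESeq2, from 0.130, 0.627 and 0.839 CPM in WT to 2.92, 1.80 and 1.84 in KO, at 2.06 ± 0.59 (edgeR adjusted p = 0.144, DESeq2 adjusted p = 0.0249). Fmod, Prelp and Bgn, which encode fibromodulin, prolargin and biglycan, were at 1.22 ± 0.65, 0.65 ± 0.36 and -0.36 ± 0.27. Of the receptors, Itga1, the alpha subunit of a collagen-binding integrin, rose by DESeq2, from 3.89, 4.39 and 5.20 to 7.58, 6.87 and 7.90 CPM, at 0.73 ± 0.20 (edgeR adjusted p = 0.133, DESeq2 adjusted p = 0.0223). The collagen-binding tyrosine kinases Ddr1 and Ddr2 were at 0.34 ± 0.14 and -0.56 ± 0.46, and the integrin subunit Itga2 at -0.22 ± 0.22, without passing either adjusted test.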

How the data were processed

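Messenger RNA was sequenced in 6 libraries, 3 WT and 3 KO. RNA with poly(A) was fragmented, copied from random hexamers and amplified by PCR, per the labels' protocols, and no strand-marking step is named. Per the submitters' processing notes, CASAVA and STAR were used with mm10; versions, counter and annotation: not given in the sources used here. Analysis began from processed values. The table deposited for the series held raw read counts and, per the file headers, FPKM values, which equalled the count per kilobase scaled to the column total within a relative difference of 2.1e-07. The authors' signal columns (group mean of normalized counts), log2 fold changes and p-values appear only where the authors' deposited table is named.

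The test was that of edgeR 4.0.16 on the counts, run in R 4.3.3 (TMM, filterByExpr with a minimum count of 10 and total of 15, robust quasi-likelihood F test, Benjamini-Hochberg over 14196 genes, threshold 0.05). SE is the absolute log2 fold change divided by the square root of F. DESeq2 1.42.0, on the same filtered genes, and limma 3.58.1, on log2(FPKM + 1) and log2(FPKM + 0.1) above 0.5 FPKM, were alternatives, with RLE or upper-quartile scaling, no filter, a filter at 1 CPM in 3 libraries, non-robust estimation, a replicate block and each library left out. For Ezh2, an exact permutation test over 20 splits gave p = 0.1, the smallest it can give. The edgeR fit was tested on simulated data.

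The collagen members, classes and lists were chosen with earlier results of these data known. All members are named; full values are given for the 3 highest by mean FPKM in each of the fibrillar, basement membrane and fibril-associated classes, the 6 highest of the rest, and every member of at least 1 CPM called by edgeR or DESeq2; of each synthesis list the 4 genes of smallest p are named. Genes with library values outside that rule (Col4a3, Col4a4, Col4a6, Col5a1, Col5a2, Col5a3, Col8a1, Col11a1, Col11a2, Col13a1, and the markers Cspg4, Rgs5, Des, Pdgfra and Lyz2) were chosen after their values were seen. Sequences come from RefSeq, GRCm38.p6. The values of 1 marker list are not reported here. The protocol names no molecular identifiers, so PCR copies are not independent molecules.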

Additional observations from a re-analysis of the deposited data

How the results depend on the processing

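With 3 libraries a group and a WT library that stood apart, calls depended on the test and on single libraries. DESeq2 called 1046 genes, 3 collagens and 3 synthesis and assembly genes where edgeR called 0 of each; edgeR called 131 genes with no filter on low counts and limma 2 with either pseudocount. At an adjusted p of 0.10, 374 genes and 2 collagens passed, and at an unadjusted p under 0.05, 2811, 7 and 6. Leaving out 1 library gave 0 to 216 genes, 0 to 1 collagens and 0 to 1 synthesis genes by edgeR; without WT replicate 2 the collagen was Col14a1. DESeq2's collagen count ran from 2 to 7 in the fits without 1 library, an alternative chosen after seeing the data: 6 without WT replicate 1, 7 without WT replicate 2, 6 without WT replicate 3, 2 without KO replicate 1 or KO replicate 3 and 3 without KO replicate 2. Ezh2 passed with DESeq2 (-1.47), with no filter (-1.46) and without WT replicate 2; its fold change ranged from -1.63 to -1.33 with 1 library left out and was -1.18 with limma on log2(FPKM + 1).

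Among the genes given in full, the sign of 10 changed in at least 1 edgeR or limma fit, none of which edgeR called. With 1 library left out, their edgeR log2 fold changes ranged over -0.20 to 0.79 for Col1a1, -0.26 to 0.54 for Col1a2, -0.19 to 0.81 for Col3a1, -0.076 to 0.51 for Col4a1, -0.16 to 0.45 for Col4a2, -0.042 to 0.62 for Col16a1, -0.20 to 0.93 for Col6a1, -0.20 to 0.88 for Col6a2, -0.27 to 0.31 for Col18a1 and -0.52 to 0.17 for Col15a1. Col18a1 also turned positive with no filter (0.0089) and with limma (0.0636 and 0.0645 at pseudocounts 1 and 0.1), as did Col15a1 with limma (0.081 and 0.096). Deviations of same-numbered samples correlated at r = -0.09, 0.30 and 0.12 for replicates 1, 2 and 3, not all above 0.1, and not every sample correlated best with its own number, so the numbers were not taken to pair samples; a replicate block called 0 genes and 0 collagens and put Col18a1 at 0.067 and Col15a1 at 0.085. The cause of these sign changes was not tested. Scaling by RLE or upper quartile changed no sign of the 18 collagens given in full and called no collagen. At this depth the 6 untested collagens, at 1 to 40 reads, allow no comparison.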
